A study of Homo sapiens with 8 samples.

Results

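ATF4 and 9 genes known as its transcriptional targets in the integrated stress response were followed in the RNA-Seq libraries of DU145 cells: ATF4, DDIT3, TRIB3, CHAC1, ASNS, PSAT1, PHGDH, SHMT2, SESN2 and VLDLR. They were taken by gene name from the deposited table, and all 10 were found among its 23391 genes. All 10 passed the filter on low counts, 1 cpm (counts-per-million of the library) or more in 2 or more libraries, as did 13856 genes in all. DU145 is an established line of human prostate carcinoma cells. DU145-pc3.1 cells carried the empty vector pcDNA3.1-zeo and DU145-Esrrb cells carried the same vector with the nuclear receptor Esrrb (estrogen related receptor beta). Each was a pool of transfected cells kept under Zeocine selection, not a single clone, and was grown in medium with charcoal-stripped serum. Each pool was sequenced without the drug (DU145-pc3.1, DU145-Esrrb) and after 3 µM DY131, a synthetic ligand of Esrrb and Esrrg (DU145-pc3.1+DY131, DU145-Esrrb+DY131) in 2 biological replicates, which makes 4 groups. The series record speaks of vehicle for the groups without DY131, which are called untreated here, and the length of the treatment that was sequenced is not given in the sources used here. The questions were whether DY131 lowered or raised amino acid stress genes in cells without Esrrb, whether it did so in cells with Esrrb, and whether these effects differed.

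The integrated stress response joins several stresses, among them shortage of amino acids, misfolded protein in the endoplasmic reticulum and viral RNA. Kinases that sense them phosphorylate the initiation factor eIF2α, which slows most translation and raises that of ATF4, a bZIP transcription factor. ATF4 then switches on genes for amino acid synthesis and uptake, tRNA charging and, under long stress, cell death. Because ATF4 is controlled largely at translation, its mRNA is no direct measure of its protein, which was not measured here.

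ATF4 pairs with C/EBP proteins on short elements known as C/EBP-ATF response elements (CARE, core TGATGCAA) and, in the ASNS promoter, on the nutrient-sensing element with the core TGATGAAA. The windows searched, on both strands, were the RefSeq promoters of GRCh38.p14, 250 bases before to 50 bases after a gene's start. Windows were found for 9 of the 10 genes, 14 windows in all, and not for SHMT2. The CARE core lay in the window of CHAC1 and the nutrient-sensing core in a window of ASNS. The sequences are shown because these were the only matches to either core in the 14 windows. Whether a match goes with the size of the DY131 effect was not tested. Each runs 5′ to 3′ on the strand of its gene, with the matched core in capitals (for CHAC1 its reverse complement, since the match was on the other strand).
CHAC1: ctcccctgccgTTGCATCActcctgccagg
ASNS: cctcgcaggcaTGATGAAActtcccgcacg
The CHAC1 stretch is chr15:40953251-40953280 on the plus strand, with the core beginning at position -209 from the annotated start. The ASNS stretch is chr7:97872458-97872487 on the minus strand, with the core beginning at position -68. In GENCODE 29 the stretch lay within an exon of 2 of the 5 CHAC1 transcripts and of 1 of the 17 ASNS transcripts, whose starts are further upstream. Of all 35116 promoter windows, 0.866% held the CARE core and 1.11% the nutrient-sensing core. The core of the estrogen related receptor element, AAGGTCA, was in 3.92% of all windows and in 0 of the 14 windows of these genes. A match is a description of the letters and was not tested as a binding site.

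The libraries held 7858743 to 11551690 counted reads, with the lowest totals in the libraries of DU145-Esrrb+DY131 cells. Reads on ESRRB, the transfected gene, went with the labels, with 3 and 0 reads in DU145-pc3.1, 0 and 1 in DU145-pc3.1+DY131, 104 and 99 in DU145-Esrrb, and 105 and 143 in DU145-Esrrb+DY131. The 5 epithelial markers looked at summed to between 2503 and 3166 cpm per library. Of 4 prostate luminal markers 1 passed the filter, and the secretory marker KLK3 was at 0 in all 8 libraries. The summed markers of leukocytes, endothelium and fibroblasts reached at most 1.41, 1.12 and 5.70 cpm in any library. In the libraries of DU145-Esrrb+DY131 cells, counts relative to untreated cells fell off with the share of a transcript's 50-base windows that cross an exon junction. The DY131 effects of the genes and groups named are also given with that trend removed (with the junction term removed). The p-values rest on the spread between replicates of a group, estimated for each gene over all 4 groups together. This estimate was also drawn toward the spread of the other genes. Replicates differed most in DU145-pc3.1+DY131 cells, with a chi-square per degree of freedom of 7.3, against 1.29 to 2.67 in the other groups. The p-values for that group thus also draw on the closer replicates of the others. Since bulk RNA was sequenced, fewer cells with a transcript and less of it in each cell cannot be told apart.

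In untreated DU145-pc3.1 cells, levels per kilobase of transcript spanned from PSAT1 at 658 ± 46.7 cpm per kb (SD, n = 2) to SESN2 at 9.06 ± 0.892 cpm per kb. ATF4 came after PSAT1 at 335 ± 14.2 cpm per kb. SHMT2 at 158 ± 8.49 cpm per kb and ASNS at 151 ± 14.5 cpm per kb did not differ beyond their spread. PHGDH followed at 107 ± 4.40 cpm per kb, TRIB3 at 60.6 ± 2.96 cpm per kb and DDIT3 at 33.7 ± 1.19 cpm per kb. CHAC1 at 20.9 ± 2.39 cpm per kb and VLDLR at 19.9 ± 0.374 cpm per kb did not differ beyond their spread.

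DY131 lowered most of these genes in cells without Esrrb. In DU145-pc3.1 cells 9 of the 10 genes fell, 0 rose, and VLDLR did not pass the test (edgeR's quasi-likelihood test, adjusted p under 0.05 over all tested genes). Of all 13856 tested genes 37.4% passed in either direction and 18.5% fell. The 10 genes were chosen with earlier results of these data known, so counts set beside such shares are a description only. CHAC1, ASNS, PSAT1 and PHGDH fell at least 2-fold, 4 of 10, where 3.16% of all genes did. The median over all 10 was -0.78 (log2 fold change), and that of all tested genes -0.003. The paper, which used edgeR's exact test, reported no gene changed by DY131 in cells without Esrrb. In the test used here 438 genes fell and 142 rose at least 2-fold in that comparison. Under the exact test on these counts, the 10 genes and some pathway genes named below kept direction and call in all 54 checks. The reason for this difference from the paper was not tested.

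The response in DU145-Esrrb cells was split. There 6 of the 10 genes fell (ATF4, CHAC1, ASNS, PSAT1, PHGDH and SHMT2), DDIT3 rose, and TRIB3, SESN2 and VLDLR did not pass. The background was wide, since 58.7% of all tested genes passed in this comparison, 29.5% falling and 29.2% rising. ASNS and PHGDH fell at least 2-fold, 2 of 10, where 9.04% of all genes did. The paper also lists ASNS and PHGDH as lowered by DY131 when Esrrb was expressed, and concludes that DY131 depends on Esrrb to act. Both genes had fallen at least 2-fold here in DU145-pc3.1 cells too. The median over all 10 was -0.35 (log2 fold change), and that of all tested genes -0.004. The DY131 effects in the 2 cell pools share no library. All 6 genes that fell in DU145-Esrrb cells had also fallen in DU145-pc3.1 cells. With 9 of the 10 fallen there, such an overlap was almost fixed in advance. Over all tested genes 1603 fell in both, which is 62.4% of those that fell in DU145-pc3.1 and 39.3% of those that fell in DU145-Esrrb cells.

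**Figure D1:**
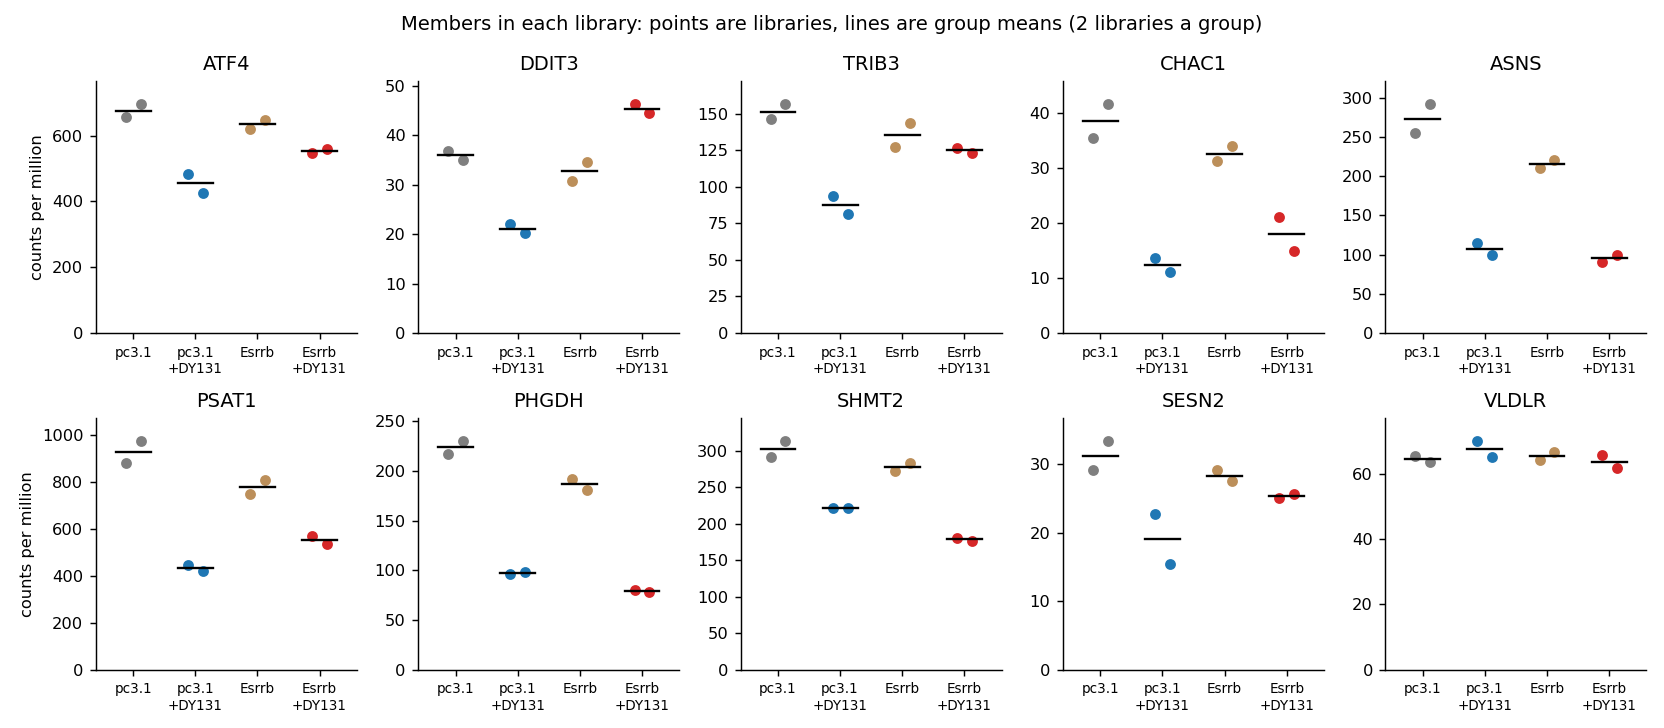
Level of each of the 10 genes in counts-per-million (linear axes from 0) in each of the 8 libraries, by group; points are libraries and lines are the means of 2 libraries. Both DY131-treated DU145-pc3.1 libraries lay below both untreated ones for every gene but VLDLR, while DDIT3 was highest in DU145-Esrrb+DY131 cells, at 46.3 and 44.4 cpm.

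ATF4, on chromosome 22 (39519695 to 39522685, plus strand, GENCODE 29 on GRCh38, as for the positions that follow), was at 655 and 696 cpm in DU145-pc3.1, 484 and 425 cpm in DU145-pc3.1+DY131, 620 and 648 cpm in DU145-Esrrb, and 547 and 558 cpm in DU145-Esrrb+DY131 libraries. Treated and untreated libraries did not overlap in either pool, and the gap was wider without Esrrb. The fitted level after DY131 was 67.3% of the untreated one in DU145-pc3.1 cells (log2 fold change -0.57, SE 0.065, edgeR adjusted p = 9.01e-06) and 87.2% in DU145-Esrrb cells (-0.20, SE 0.065, adjusted p = 0.0162). The fall in DU145-Esrrb cells lost its call in edgeR without DU145-Esrrb replicate 2 (adjusted p = 0.109), without either DU145-Esrrb+DY131 library (adjusted p = 0.109 and 0.0654), and with a term for length and GC content of the transcripts removed (adjusted p = 0.791). With the junction term removed it was larger (-0.32, adjusted p = 6.41e-04). Of the 50-base windows of the ATF4 transcript, 22.9% also occur in other transcripts, chiefly those of processed pseudogenes such as ATF4P3. How such reads were counted is not given in the sources used here.

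DDIT3 encodes CHOP, a bZIP factor that ATF4 switches on and that promotes cell death under lasting stress (chromosome 12, 57516588 to 57521737, minus strand). It was at 36.8 and 35.0 cpm in DU145-pc3.1, 22.1 and 20.1 cpm in DU145-pc3.1+DY131, 30.8 and 34.6 cpm in DU145-Esrrb, and 46.3 and 44.4 cpm in DU145-Esrrb+DY131 libraries. The 4 treated libraries thus stood on opposite sides of their untreated ones. DDIT3 fell to 58.8% in DU145-pc3.1 cells (log2 fold change -0.77, SE 0.096, edgeR adjusted p = 2.09e-05) and rose to 139% in DU145-Esrrb cells (0.47, SE 0.090, adjusted p = 3.44e-04). Its 3′ end overlaps MARS, the methionyl-tRNA synthetase gene on the other strand. Of its windows 29.7% also occur in transcripts of other genes, with MARS sharing the most, and the use of strand in counting is not given. MARS, named for this overlap, fell in both pools, with log2 fold changes of -0.58 and -0.94 (-0.41 for the latter with the junction term removed). Only 0.035% of the windows of the MARS transcript looked at here were shared, and the weight of reads in the overlap was not tested.

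TRIB3 encodes a pseudokinase that ATF4 and CHOP induce and that restrains ATF4 in turn (chromosome 20, 362835 to 397559, plus strand). The libraries of DU145-pc3.1 cells had 146 and 157 cpm untreated, and 93.6 and 81.1 cpm with DY131. Those of DU145-Esrrb cells had 128 and 144 cpm untreated, and 127 and 123 cpm with DY131. The groups were far apart without Esrrb and nearly touched with it. TRIB3 fell to 57.8% in DU145-pc3.1 cells (log2 fold change -0.79, SE 0.077, edgeR adjusted p = 2.31e-06). In DU145-Esrrb cells the log2 fold change was -0.12 (95% interval -0.28 to 0.05, adjusted p = 0.204), and it passed in edgeR with only the 4 libraries of that pool in the fit (adjusted p = 0.0416).

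CHAC1, whose promoter window held the CARE core, encodes an enzyme that degrades glutathione and is among the most inducible ATF4 targets (chromosome 15, 40952962 to 40956519, plus strand). It was at 35.5 and 41.7 cpm in DU145-pc3.1, 13.6 and 11.1 cpm in DU145-pc3.1+DY131, 31.3 and 34.0 cpm in DU145-Esrrb, and 21.1 and 15.0 cpm in DU145-Esrrb+DY131 libraries. Treated libraries were below untreated ones in both pools. The fitted level fell to 32.1% in DU145-pc3.1 cells (log2 fold change -1.64, SE 0.143, edgeR adjusted p = 8.21e-07) and to 54.9% in DU145-Esrrb cells (-0.86, SE 0.143, adjusted p = 9.43e-05).

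ASNS, asparagine synthetase, carries the nutrient-sensing core in its promoter (chromosome 7, 97852118 to 97872542, minus strand). It was at 255 and 292 cpm in DU145-pc3.1, 115 and 100.1 cpm in DU145-pc3.1+DY131, 210.3 and 220.5 cpm in DU145-Esrrb, and 91.1 and 99.9 cpm in DU145-Esrrb+DY131 libraries. After DY131 both pools came to a like level. ASNS fell to 39.3% in DU145-pc3.1 cells (log2 fold change -1.35, SE 0.079, edgeR adjusted p = 1.81e-08) and to 44.4% in DU145-Esrrb cells (-1.17, SE 0.082, adjusted p = 1.55e-08). Of its windows 97.3% also occur in transcripts of other genes, with AC079781.5, a locus annotated over it, sharing the most.

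PHGDH and PSAT1 encode the enzymes of the opening steps of serine synthesis. PHGDH (chromosome 1, 119648411 to 119744226, plus strand) was at 218 and 231 cpm in DU145-pc3.1, 96.1 and 98.4 cpm in DU145-pc3.1+DY131, 192 and 181 cpm in DU145-Esrrb, and 80.3 and 78.1 cpm in DU145-Esrrb+DY131 libraries. The treated libraries of each pool lay close together and far below the untreated ones. PHGDH fell to 43.4% in DU145-pc3.1 cells (log2 fold change -1.21, SE 0.061, edgeR adjusted p = 3.14e-09) and to 42.4% in DU145-Esrrb cells (-1.24, SE 0.064, adjusted p = 6.47e-10).

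PSAT1 (chromosome 9, 78297143 to 78330093, plus strand) was at 882 and 975 cpm in DU145-pc3.1, 448 and 420.1 cpm in DU145-pc3.1+DY131, 749 and 809 cpm in DU145-Esrrb, and 569 and 533 cpm in DU145-Esrrb+DY131 libraries. Here the treated DU145-Esrrb libraries stood above the treated DU145-pc3.1 libraries. PSAT1 fell to 46.7% in DU145-pc3.1 cells (log2 fold change -1.10, SE 0.067, edgeR adjusted p = 2.81e-08) and to 70.7% in DU145-Esrrb cells (-0.50, SE 0.066, adjusted p = 1.15e-05).

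SHMT2, the mitochondrial enzyme that turns serine into glycine and a one-carbon unit (chromosome 12, 57229327 to 57234935, plus strand), was at 291 and 314 cpm in DU145-pc3.1, 222 and 222 cpm in DU145-pc3.1+DY131, 272 and 283 cpm in DU145-Esrrb, and 181 and 177 cpm in DU145-Esrrb+DY131 libraries. The lowest 2 libraries were those of DU145-Esrrb+DY131 cells. SHMT2 fell to 73.5% in DU145-pc3.1 cells (log2 fold change -0.45, SE 0.057, edgeR adjusted p = 2.57e-05) and to 64.4% in DU145-Esrrb cells (-0.64, SE 0.059, adjusted p = 2.9e-07).

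SESN2 encodes sestrin 2, a leucine sensor that restrains the growth kinase mTORC1 (chromosome 1, 28259527 to 28282491, plus strand). It was at 29.1 and 33.5 cpm in DU145-pc3.1, 22.8 and 15.5 cpm in DU145-pc3.1+DY131, 29.1 and 27.5 cpm in DU145-Esrrb, and 25.0 and 25.7 cpm in DU145-Esrrb+DY131 libraries. The 2 DU145-pc3.1+DY131 libraries were farther apart than any other pair for this gene. SESN2 fell to 61.3% in DU145-pc3.1 cells (log2 fold change -0.71, SE 0.137, edgeR adjusted p = 8.95e-04). In DU145-Esrrb cells the log2 fold change was -0.16 (95% interval -0.45 to 0.13, adjusted p = 0.334).

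VLDLR, the very low density lipoprotein receptor, ATF4-induced in other cells under stress of the endoplasmic reticulum (chromosome 9, 2621834 to 2660053, plus strand), stayed between 61.7 and 70.2 cpm over the 8 libraries, and its groups overlapped in both pools. Its log2 fold change with DY131 was 0.07 in DU145-pc3.1 cells (95% interval -0.09 to 0.22, edgeR adjusted p = 0.494) and -0.04 in DU145-Esrrb cells (-0.20 to 0.12, adjusted p = 0.669). Of its windows 21.6% also occur in transcripts of other genes, with VLDLR-AS1, annotated on the other strand, sharing the most.

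The DY131 effects differed between the pools for 6 of the 10 genes. A test of the difference itself, DU145-Esrrb minus DU145-pc3.1, gave a positive value past the threshold for ATF4, DDIT3, TRIB3, CHAC1, PSAT1 and SESN2 and a negative one for 0 genes. Of all tested genes 33.7% passed this test and 16.1% passed with a positive value. The difference was largest for DDIT3, at 1.24 on the log2 scale (SE 0.132, edgeR adjusted p = 6.8e-06), the only one of the 10 beyond 2-fold with all 8 libraries (CHAC1 reached 1.00 without DU145-Esrrb+DY131 replicate b). It was 0.78 for CHAC1 (adjusted p = 0.00925), 0.68 for TRIB3 (adjusted p = 2.78e-04), 0.60 for PSAT1 (adjusted p = 2.09e-04), 0.55 for SESN2 (adjusted p = 0.0419) and 0.37 for ATF4 (adjusted p = 0.00592). For ATF4, TRIB3, CHAC1, PSAT1 and SESN2 the positive value was a smaller fall in DU145-Esrrb cells, and for DDIT3 a rise in place of a fall.

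For ASNS, PHGDH, SHMT2 and VLDLR the difference did not pass. Its 95% interval was -0.07 to 0.42 for ASNS, -0.22 to 0.16 for PHGDH, -0.37 to -0.02 for SHMT2 (edgeR adjusted p = 0.0857) and -0.32 to 0.11 for VLDLR. The call for CHAC1 was lost in edgeR without DU145-Esrrb+DY131 replicate a (adjusted p = 0.102). That for SESN2 was lost with 6 of the 8 libraries left out 1 at a time (adjusted p = 0.0737 to 0.162, all but DU145-pc3.1 replicate 1 and DU145-pc3.1+DY131 replicate 1), with DESeq2 (adjusted p = 0.115), with library size alone as the scaling (adjusted p = 0.0696) and with at least 10 reads required in every library (adjusted p = 0.0681). SHMT2 passed without either DU145-pc3.1+DY131 library (adjusted p = 0.0327 and 0.0452), with library size alone (adjusted p = 0.0416) and with the 10-read filter (adjusted p = 0.031). ASNS passed without DU145-pc3.1+DY131 replicate 1 (adjusted p = 0.0327).

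**Figure D2:**
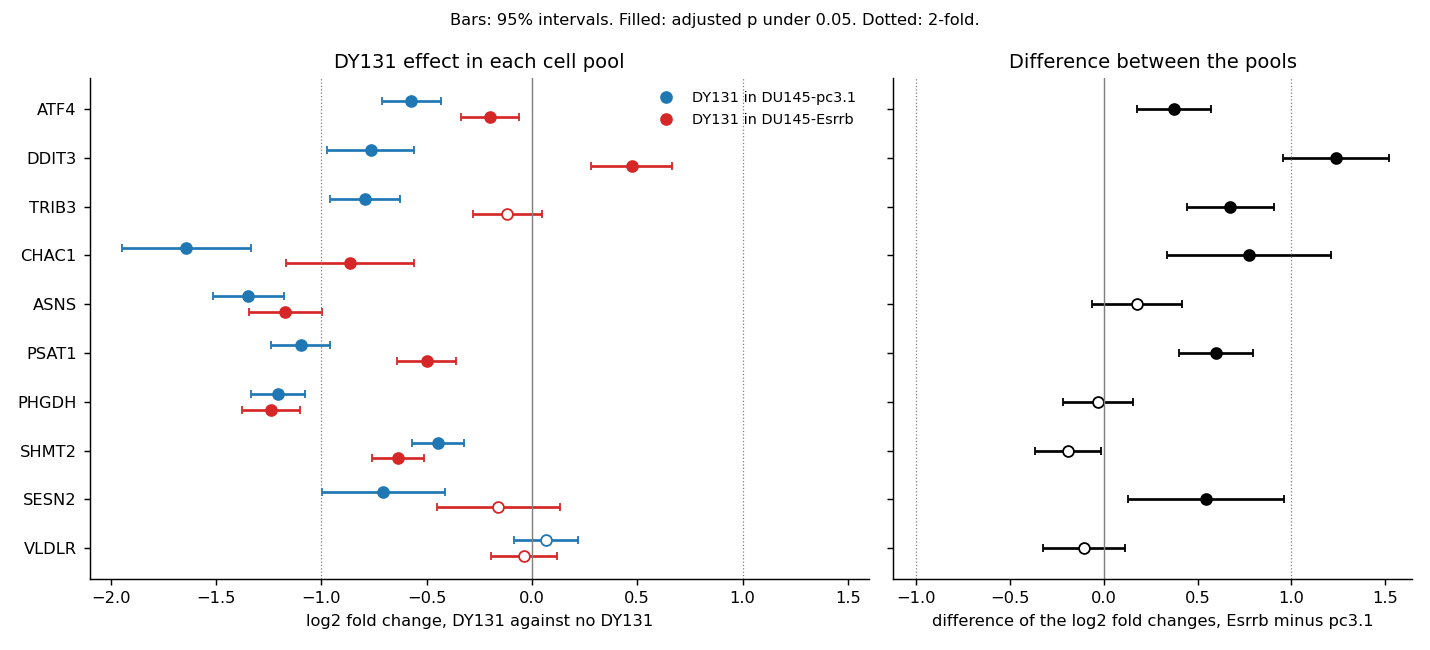
Left, log2 fold change with DY131 (horizontal axis) of each gene in DU145-pc3.1 cells (blue) and DU145-Esrrb cells (red); right, the difference between these effects. Bars are 95% intervals from the fit of 8 libraries, filled points have an adjusted p under 0.05 and dotted lines mark 2-fold. DDIT3 lies on opposite sides of 0 in the 2 pools, at -0.77 and 0.47, while PHGDH lies at -1.21 and -1.24.

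The share of a transcript's 50-base windows that cross an exon junction moved with the DY131 effect in DU145-Esrrb cells. Over the 13606 tested genes with an annotated transcript, split into 5 equal parts by that share, the parts from lowest to highest had median log2 fold changes of 0.26, 0.16, 0.02, -0.13 and -0.43 in DU145-Esrrb cells. In DU145-pc3.1 cells the same medians lay between -0.02 and 0.01. Spearman's rho across these genes, which share their libraries, was -0.38 and 0.01. Of the 10 genes, ATF4 (2.49%), CHAC1 (4.72%) and TRIB3 (6.0%) had low shares. SESN2 (12.96%) and DDIT3 (14.3%) were in the middle, and PSAT1 (25.2%), VLDLR (26.1%), PHGDH (26.3%), SHMT2 (28.8%) and ASNS (32.6%) were high. Of the 5 genes with the lower shares, 5 had passed the test of the difference between the pools, and of the 5 with the higher shares 1 had, PSAT1.

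The effects were therefore also fitted with a smooth term of this share removed from each library. In DU145-pc3.1 cells the counts stayed at 9 fallen and 0 risen. In DU145-Esrrb cells they came to 7 fallen and 2 risen. DDIT3 kept its rise (0.53, adjusted p = 1.16e-04). TRIB3 now passed (-0.27, edgeR adjusted p = 0.0109) and VLDLR passed with a rise (0.24, adjusted p = 0.0111). The 4 genes of amino acid synthesis moved toward 0 and kept their calls, PHGDH at -0.95, ASNS at -0.71, SHMT2 at -0.28 (adjusted p = 0.00118) and PSAT1 at -0.24 (adjusted p = 0.00808). ATF4 came to -0.32, SESN2 to -0.13 without a call, and CHAC1, at -1.02, was the only one of the 10 beyond 2-fold. Over all genes the split went from 4044 risen and 4084 fallen to 4520 risen and 2928 fallen, with a median of 0.08.

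With the same correction the difference between the pools passed for 4 genes, DDIT3 (1.25, edgeR adjusted p = 6.16e-06), PSAT1 (0.83, adjusted p = 1.81e-05), ASNS (0.61, adjusted p = 8.30e-04) and TRIB3 (0.49, adjusted p = 0.00536). It no longer passed for ATF4 (0.20, adjusted p = 0.141), CHAC1 (0.59, adjusted p = 0.0516) or SESN2 (0.53, adjusted p = 0.0531). DDIT3, TRIB3 and PSAT1 passed on both scales, with and without the correction. With the correction, 23.2% of all 13606 genes passed this test, and 1817 genes passed with a positive value.

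**Figure D3:**
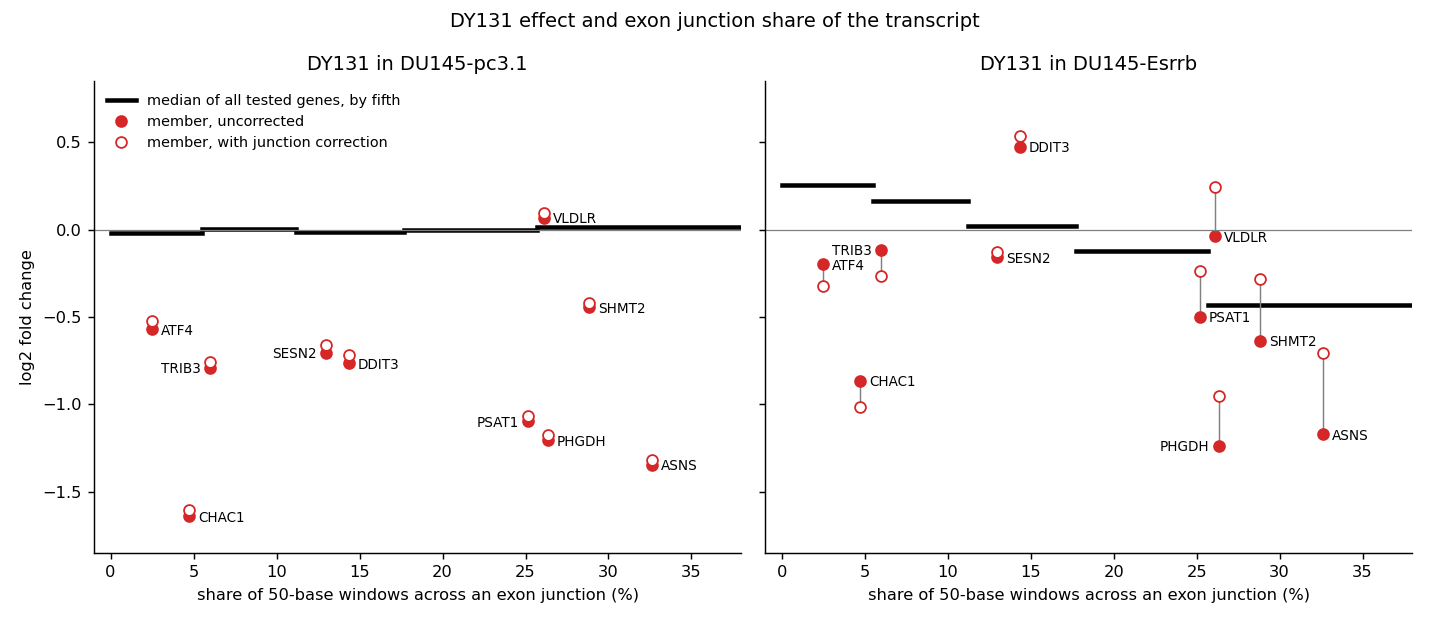
Log2 fold change with DY131 (vertical axis) against the share of 50-base windows of the transcript that cross an exon junction (horizontal axis, %), in DU145-pc3.1 cells (left) and DU145-Esrrb cells (right). Filled points are the 10 genes as fitted, open points the same with the junction term removed, and black lines the median of all tested genes in each of 5 equal parts by share, the last cut off at the right. The black lines step from 0.26 down to -0.43 on the right and stay near 0 on the left.

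Without DY131 the pools with and without Esrrb differed little in these genes. An effect of Esrrb and other differences between the selected pools cannot be told apart. Against untreated DU145-pc3.1 cells, 3 of the 10 genes fell in untreated DU145-Esrrb cells and 0 rose, where 4.18% of all tested genes passed and 2.5% fell. They were ASNS at 78.7% (log2 fold change -0.35, SE 0.075, edgeR adjusted p = 0.0155), PHGDH at 83.3% (-0.26, SE 0.058, adjusted p = 0.0165) and PSAT1 at 83.9% (-0.25, SE 0.065, adjusted p = 0.0384). The others lay between -0.24 for CHAC1 and 0.02 for VLDLR. This comparison shares the untreated libraries with both DY131 effects. Without 1 library the count ranged from 0 to 3. It was 0 without DU145-pc3.1 replicate 2 and without either DU145-Esrrb replicate, and 1 without DU145-pc3.1 replicate 1.

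Beside the 10 genes, 64 other genes of the pathway were looked at in 7 groups by role, 61 of which passed the filter (GDF15, FGF21 and INHBE were too low). These lists too were chosen with earlier results of these data known, so their counts are a description only. In DU145-pc3.1 cells 38 of the 61 fell with DY131 and 6 rose, with a median log2 fold change of -0.29, where 18.5% of all tested genes fell. In DU145-Esrrb cells 36 fell and 8 rose, with a median of -0.33, where 29.5% of all genes fell and 29.2% rose. Once the junction term was removed, 29 fell and 10 rose there, where 2928 of all 13606 genes fell and 4520 rose. The same shares stand behind the counts of each group that follows. In both pools 29 fell, which is 76.3% of those that fell in DU145-pc3.1 cells and 80.6% of those that fell in DU145-Esrrb cells. Over all tested genes these shares were 62.4% and 39.3%. The difference between the pools passed for 31 genes, 14 positive and 17 negative, where 33.7% of all genes passed. With the junction term removed it passed for 15 positive and 6 negative, where 23.2% of all genes passed. The count of 31 was 18 without DU145-Esrrb+DY131 replicate b. Without DY131, 6 of the 61 fell in DU145-Esrrb cells and 0 rose, where 2.5% of all genes fell, a count that ranged from 2 to 15 when each of the 8 libraries was left out in turn.

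The group of stress outputs was a mixed one of 12 tested genes, among them genes of cell death, growth restraint, secreted factors, cysteine synthesis, tRNA export and protein oxidation. It held 5 of the 7 genes of the wider list that fell 2-fold in DU145-pc3.1 cells and 3 of the 5 that did in DU145-Esrrb cells. Of all tested genes 3.16% and 9.04% fell 2-fold in these comparisons. The 5 of 61 in DU145-Esrrb cells were thus near the share of all genes. In each pool 9 of the 12 fell, while 0 rose in DU145-pc3.1 cells and 1 rose in DU145-Esrrb cells (8 fell and 1 rose there with the junction term removed). DDIT4, an inhibitor of mTORC1, was at 495 and 513 cpm in DU145-pc3.1, 164 and 180.3 cpm in DU145-pc3.1+DY131, 447 and 444 cpm in DU145-Esrrb, and 256 and 258 cpm in DU145-Esrrb+DY131 libraries. It fell to 34.2% in DU145-pc3.1 cells (log2 fold change -1.55, edgeR adjusted p = 5.15e-10) and to 57.8% in DU145-Esrrb cells (-0.79, adjusted p = 3.13e-08), and the difference between the pools was 0.76 (adjusted p = 9.24e-06). With the junction term removed these were -0.94 in DU145-Esrrb cells and 0.58 for the difference. Of the DDIT4 windows 44.1% also occur in transcripts of other genes, with DDIT4-AS1 sharing the most.

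NUPR1, a small stress-induced nuclear protein, rested on few reads, with 51 and 41 in DU145-pc3.1, 5 and 9 in DU145-pc3.1+DY131, 73 and 37 in DU145-Esrrb, and 7 and 13 in DU145-Esrrb+DY131 libraries. It fell in both pools, with log2 fold changes of -2.63 (SE 0.432, edgeR adjusted p = 2.23e-04) and -1.99 (SE 0.393, adjusted p = 4.57e-04). BBC3, the death-promoting protein PUMA, had 40 and 40, 14 and 16, 35 and 42, and 11 and 7 reads in the same order of groups and fell by 1.34 and 1.63 on the log2 scale. After removal of the junction term the values in DU145-Esrrb cells were -1.84 for NUPR1 and -1.73 for BBC3. For both genes the difference between the pools did not pass.

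ADM2, a peptide hormone gene, fell by 1.44 on the log2 scale in DU145-pc3.1 cells and by 0.58 in DU145-Esrrb cells (-0.67 with the junction term removed), a difference past the threshold (0.86, edgeR adjusted p = 0.00493; 0.71 with the junction term removed, adjusted p = 0.0147). CTH and CBS make cysteine from homocysteine. CTH fell by 1.21 and 0.88 on the log2 scale, the latter without a call when DU145-Esrrb+DY131 replicate b was left out (adjusted p = 0.0647). CBS fell by 0.68 and 1.16, but is uncertain. Of its windows 94.6% also occur in transcripts of other genes, with the near-identical copy CBSL sharing the most. Without the junction trend the values in DU145-Esrrb cells were -0.63 for CTH and -0.76 for CBS.

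Of the 12 aminoacyl-tRNA synthetases, which charge tRNAs with amino acids, 10 fell and 0 rose in each pool (18.5% and 29.5% of all genes fell), with median log2 fold changes of -0.48 and -0.61. AARS, for alanine, went from 704 and 729 cpm to 397 and 356 cpm in DU145-pc3.1 cells and from 707 and 700.3 cpm to 342 and 338 cpm in DU145-Esrrb cells. These are log2 fold changes of -0.93 and -1.05 (edgeR adjusted p = 5.59e-08 and 2.37e-09). CARS, for cysteine, fell by 0.67 and by 1.01. The difference between the pools was positive past the threshold for 1 of the 12 and negative for 6. Of all genes 33.7% passed that test. After removal of the junction term it was positive for 3 and negative for 0, where 23.2% of all genes passed. With the junction term removed 9 of 12 fell in DU145-pc3.1 cells, and in DU145-Esrrb cells 8 fell and 1 rose, with AARS at -0.70 and CARS at -0.29 there. The riser was IARS, which had fallen before the correction (log2 fold change -0.31, then 0.24).

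Among the 6 bZIP partners of ATF4, 5 fell and 1 rose in DU145-pc3.1 cells, and 2 fell and 2 rose in DU145-Esrrb cells, there also with the junction term removed. ATF5 rose in both, from 15.5 and 17.4 cpm to 30.8 and 31.7 cpm without Esrrb and from 18.4 and 18.8 cpm to 44.2 and 40.6 cpm with it (log2 fold changes 0.93 and 1.19, edgeR adjusted p = 6.59e-06 and 9.26e-08; 1.03 with Esrrb and the junction term removed). Like ATF4, ATF5 is controlled at translation in stressed cells. JDP2, a repressor of AP-1 and ATF sites, fell by 1.01 on the log2 scale in DU145-pc3.1 cells and by 0.40 in DU145-Esrrb cells (-0.31 with the junction term removed), where the call was lost without DU145-Esrrb+DY131 replicate b (adjusted p = 0.0612). ATF3, which stands outside the rule for named genes and was chosen after its values were seen, was the other riser. It fell in DU145-pc3.1 cells (-0.68, edgeR adjusted p = 0.0106), rose in DU145-Esrrb cells (0.68, adjusted p = 0.00656) and differed between the pools by 1.36 (adjusted p = 0.00134). Removing the junction term left its rise at 0.57 (adjusted p = 0.0182) and the difference at 1.22 (adjusted p = 0.00375). Its fall lost the call without DU145-pc3.1 replicate 2 (adjusted p = 0.165) or DU145-pc3.1+DY131 replicate 2 (adjusted p = 0.051), and its rise without DU145-Esrrb replicate 2 (adjusted p = 0.0738) or DU145-Esrrb+DY131 replicate a (adjusted p = 0.076).

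Of 8 other genes of serine, glycine, one-carbon and proline synthesis, 4 fell and 1 rose in DU145-pc3.1 cells, and 6 fell and 0 rose in DU145-Esrrb cells. Removal of the junction term left 4 fallen and 0 risen in DU145-Esrrb cells, and the median there went from -0.60 to -0.11. ALDH1L2, a mitochondrial enzyme of the folate cycle, was at 36.0 and 37.5 cpm in DU145-pc3.1, 16.3 and 17.1 cpm in DU145-pc3.1+DY131, 20.3 and 20.9 cpm in DU145-Esrrb, and 14.6 and 13.1 cpm in DU145-Esrrb+DY131 libraries. It was already lower in untreated cells with Esrrb (log2 fold change -0.84, edgeR adjusted p = 9.82e-05), and DY131 lowered it further, by 1.14 on the log2 scale without Esrrb and by 0.57 with it (-0.51 with the junction term removed).

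**Figure D4:**
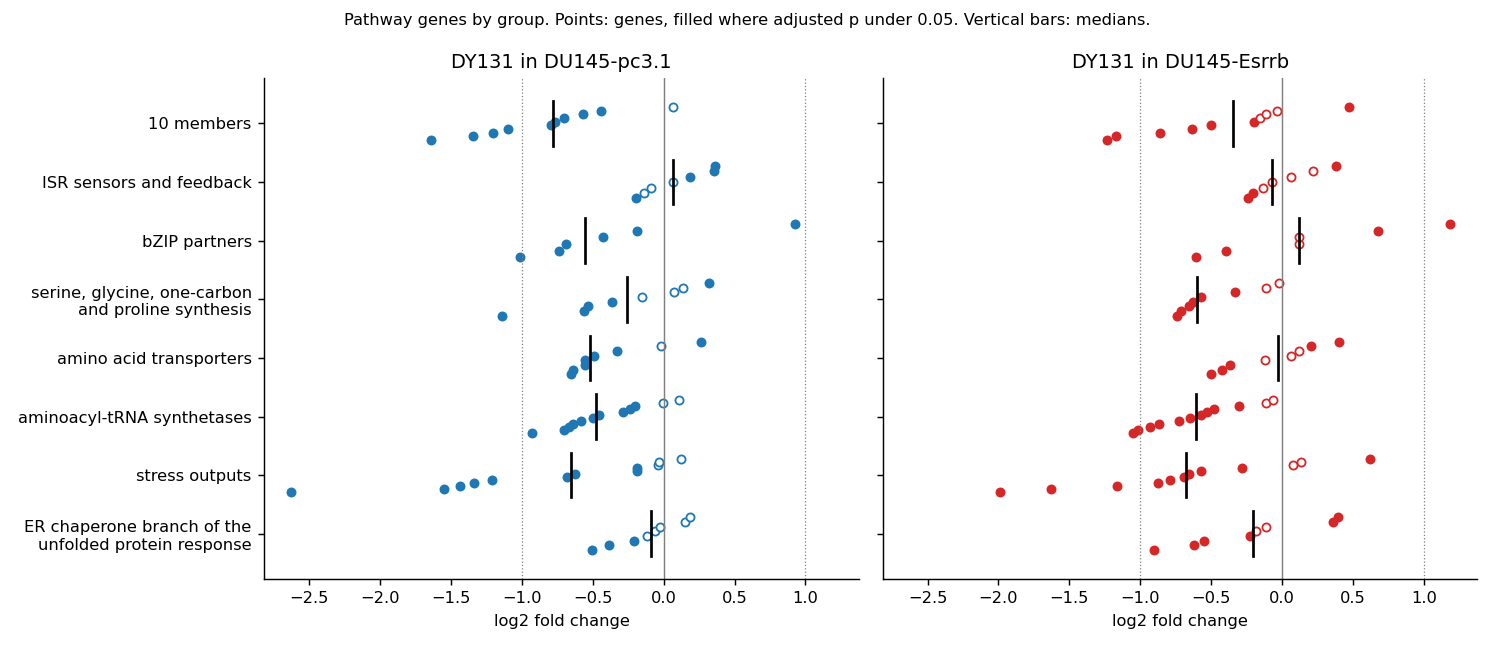
Log2 fold change with DY131 (horizontal axis) of the 10 genes and the 61 tested genes of 7 groups by role, in DU145-pc3.1 cells (left) and DU145-Esrrb cells (right); each point is a gene, filled where the adjusted p is under 0.05, and black bars are group medians. The synthetase medians lie at -0.48 and -0.61, and those of the bZIP partners at -0.56 and 0.12.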

How the data were processed

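RNA was sequenced in 8 libraries, 2 for each pool of DU145 cells (empty vector or Esrrb) and state (untreated or 3 µM DY131). The authors made stranded mRNA libraries, read 50 bases from one end in a single lane, used the FASTX-Toolkit for trimming and TopHat2 for mapping on hg18, and deposited raw counts per gene from their program MULTICOM-MAP. Its treatment of strand and of reads shared between genes is not given in the sources used here, so genes that share windows with others carry that uncertainty. Columns were assigned by the sample descriptions in the series record. Both DU145-Esrrb+DY131 columns carry 1 heading, so their libraries are named a and b only. There were 0 other columns of samples. Counts gave 7858743 to 11551690 reads per library, and 28 gene symbols had been turned into numbers. Libraries of every group differed by more than sampling noise, with a chi-square per degree of freedom of 1.29 to 7.3 between replicates, highest for DU145-pc3.1+DY131.

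Genes that reached 1 cpm in 2 or more libraries were tested in R 4.3.3 with edgeR 4.0.16 (TMM scaling, quasi-likelihood test, all 8 libraries in 1 model, Benjamini-Hochberg adjustment over 13856 genes), at an adjusted p under 0.05 and, for 2-fold, a log2 fold change of 1 or more in size. Where cpm are given they use effective library sizes. The members and gene lists were chosen with earlier results of these data known. From the wider list the text names genes past both thresholds in either DY131 comparison, 11 in all.

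Transcript length, GC content, exon junction share and shared 50-base windows came from GENCODE 29 on GRCh38, in which 22010 genes matched by RefSeq identifier, 721 by symbol and 660 not at all. Coordinates are of GRCh38, not of the authors' hg18. The junction, length and GC terms were splines of 5 degrees of freedom subtracted as offsets. Scripts were tested on simulated data. Other alternatives were the authors' edgeR exact test, DESeq2 1.42.0, other scaling and filters, only the libraries compared, the replicate number as a block, and each library left out. Figures used matplotlib 3.10.9.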

Additional observations from a re-analysis of the deposited data

Results flagged for a closer look

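For 6 of the 10 genes the DY131 effect differed between the cell pools by edgeR's test of the difference itself (log2, DU145-Esrrb minus DU145-pc3.1). The values were 1.24 for DDIT3, which fell without Esrrb and rose with it, 0.78 for CHAC1, 0.68 for TRIB3, 0.60 for PSAT1, 0.55 for SESN2 and 0.37 for ATF4. With the exon junction term removed, DDIT3 (1.25), TRIB3 (0.49) and PSAT1 (0.83) still passed, and ASNS passed as well (0.61, edgeR adjusted p = 8.30e-04). ATF4 (0.20, adjusted p = 0.141), CHAC1 (0.59, adjusted p = 0.0516) and SESN2 (0.53, adjusted p = 0.0531) did not, though SESN2 hardly moved. The part that the junction share plays in these differences was not tested beyond that correction.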

How the results depend on the processing

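Without a library at a time, the 10 genes gave 9 calls with DY131 in DU145-pc3.1 cells in every refit, 6 to 7 in DU145-Esrrb cells (7 in all), and 4 to 8 for the difference between the pools (6 in all). All calls rest on 2 libraries a group, and low genes such as NUPR1 and BBC3 on few reads. Counts that moved by over 1.5 times were these. With the exon junction term removed, 1 of the 10 genes fell 2-fold in DU145-Esrrb cells (2 as first fitted). The difference between the pools reached 2-fold in 1 to 2 genes with a library left out (CHAC1 joined DDIT3, at 1.00, without DU145-Esrrb+DY131 replicate b), and passed for 18 to 36 genes of the wider list (31 with all libraries). For Esrrb in untreated cells the 10 genes gave 0 to 3 calls with a library left out, and the wider list, 6 calls, gave 2 to 15 with a library left out, 12 with no filter on low counts, 15 with only the 4 libraries compared, 3 in the 6 numbered libraries unblocked and 10 with the length and GC correction. The causes were not tested.

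Some effects changed sign. Before and after removal of the junction term, EIF2AK4 and IARS of the wider list passed with opposite signs with DY131 in DU145-Esrrb cells. EIF2AK4 went from -0.24 (edgeR adjusted p = 0.00522) to 0.275 (adjusted p = 0.00427). IARS went from -0.31 (adjusted p = 4.04e-04) to 0.24 (adjusted p = 0.00299). With the junction term removed, VLDLR went to 0.24 with DY131 in DU145-Esrrb cells, and the difference between the pools to 0.23 for PHGDH, 0.14 for SHMT2 and 0.15 for VLDLR. With the length and GC correction, TRIB3 went to 0.15, SESN2 to 0.002 and JDP2 to 0.074 with DY131 in DU145-Esrrb cells, and PHGDH to 0.02 for the difference. With a library left out, VLDLR ranged from -0.085 to 0.005 with DY131 in DU145-Esrrb cells and from -0.004 to 0.044 for Esrrb in untreated cells, and PHGDH from -0.087 to 0.011 for the difference.

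The replicate numbers of the sample titles showed no clear pairing, with deviations of same-numbered libraries correlated at 0.02, 0.09 and -0.07. The DU145-Esrrb+DY131 libraries, which carry no number, were not in this check. Pairing by the partly different numbers in the column names was not tested. With the replicate block in the 6 numbered libraries, 9 of the 10 genes passed with DY131 in DU145-pc3.1 cells and 2 for Esrrb in untreated cells, as without the block. The wider list gave 43 with and without it, and 4 against 3.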

Other observations

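Of 7 sensors and feedback genes of the pathway (the 4 eIF2α kinases, eIF2α itself and the subunits PPP1R15A and PPP1R15B that guide its dephosphorylation), 3 rose and 1 fell with DY131 in DU145-pc3.1 cells, and 1 rose and 2 fell in DU145-Esrrb cells, with median log2 fold changes of 0.07 and -0.07. Of all tested genes 37.4% passed in DU145-pc3.1 cells and 58.7% in DU145-Esrrb cells. With the exon junction term removed the counts were 3 risen and 0 fallen, and 2 risen and 0 fallen. In DU145-Esrrb cells EIF2AK4 was among the fallen before this correction (log2 fold change -0.24) and among the risen after it (0.275).

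Of 8 amino acid transporters, 6 fell and 1 rose with DY131 in DU145-pc3.1 cells, with a median log2 fold change of -0.52, and 3 fell and 2 rose in DU145-Esrrb cells, with a median of -0.03 (2 fell and 3 rose with the junction term removed). Of all genes 18.5% and 29.5% fell. The difference between the pools was positive past the threshold for 3 of the 8 and negative for 0. Of all genes 16.1% had a positive one. With the junction term removed the counts of the 8 stayed at 3 and 0, where 1817 of 13606 genes had a positive one.

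Of the 8 genes of the chaperone branch of the unfolded protein response, 3 fell and 0 rose in DU145-pc3.1 cells, and 4 fell and 2 rose in DU145-Esrrb cells, with medians of -0.09 and -0.21. With the junction term removed 5 fell and 1 rose in DU145-Esrrb cells. Of all genes 37.4% and 58.7% passed.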
